A study of Mus musculus with 8 samples.

Results

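Liver mRNA of C57 mice, an inbred laboratory strain, was compared between animals that received MSCs after an overdose of APAP and animals that received PBS in their place. APAP is read here as acetaminophen, MSC as mesenchymal stromal cell, and PBS as phosphate-buffered saline. The comparison covered 6 of the 8 samples of the series, chosen by their sample titles, and all 12722 genes that passed a low-count filter. The APAP_MSC group (3 samples) had 400 mg/kg APAP injected into the abdominal cavity and MSCs given through the tail vein 4 hours later. The APAP_PBS group (3 samples) had the same dose of APAP without MSCs. Livers were collected at 24 hours in both. The CTRL group (2 samples), labelled as control, carries the same treatment text as the other groups, so that it had no APAP is read from its label alone. Its levels are given for orientation. The labels give neither the species and tissue source of the MSCs nor their number, and nothing in them states that each sample was a mouse of its own. The p-values therefore reflect how much these samples varied, and part of that variation may be technical.

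Acetaminophen is turned by cytochrome P450 enzymes of hepatocytes around the central veins into a reactive product that depletes glutathione, damages mitochondria and kills these cells. Dying cells and resident macrophages then call in neutrophils and monocytes through chemokines such as Cxcl1, while surviving hepatocytes secrete acute phase proteins, lower many metabolic genes and later divide. MSCs given by vein lodge mostly in the lung and act largely through secreted proteins and extracellular vesicles, which can carry microRNAs. The title of the series names a vesicle microRNA, miR-186-5p, together with CXCL1, so the comparison asks what the MSC injection changed in the injured liver and whether Cxcl1 was part of it.

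A microRNA of this class acts by pairing its seed with complementary letters in the 3′ UTR of a transcript. The mature sequence of mmu-miR-186-5p (RefSeq, GRCm38.p6, chr3:157544285-157544306, plus strand) and the single match to its seed in the annotated 3′ UTR of Cxcl1 (GENCODE M21, GRCm38, chr5:90893014-90893036, plus strand) are shown because the title links them. Capitals mark the seed, bases 2 to 8, in the microRNA, and the letters complementary to it in the transcript.
mmu-miR-186-5p: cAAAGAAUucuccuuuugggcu
Cxcl1 3′ UTR site: ccttttacATTCTTTaaccctgt
The Cxcl1 match starts at base 499 of a 3′ UTR of 592 bases. Poly(A)-selected libraries of this kind do not measure mature microRNAs, so the level of miR-186-5p in these livers was not measured. Such a match is common: 2617 of the 12607 tested genes with an annotated 3′ UTR, or 20.8%, held at least 1. The median log2 fold change, APAP_MSC over APAP_PBS, was -0.05 for genes with a match and 0.00 for those without. Genes with a match also had longer 3′ UTRs, with a median of 2516 bases against 947 bases. Among the genes with the longest 3′ UTRs, the top class of 4 by length, the medians were -0.06 with a match and -0.03 without. In the shorter classes, from the shortest up, they were -0.0002, -0.01 and -0.03 with a match and 0.04, 0.01 and -0.02 without. A match stood in 25.5% of genes with all APAP_MSC libraries below all APAP_PBS libraries, and in 12.8% of those with all above. Their median 3′ UTR lengths were 1459 and 905 bases. A part of miR-186-5p in these differences was not tested.

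The 8 libraries held 16261191 to 24516470 estimated counts each, and every pair within a group differed by more than sampling noise. On the first principal component of the 8 libraries (45.0% of the variance), CTRL scored 46.1 and 54.5 and APAP_MSC replicate 2 scored 14.4, nearer to CTRL than the other 5 APAP libraries, which scored from -34.3 to -13.5. APAP_PBS replicate 1 had the lowest score, and of the APAP libraries it was the library with the highest score for markers of infiltrating myeloid cells. Where the text ties a fold change or a list's median to either library, the value without that library is given too. The 13 hepatocyte defining markers summed to between 103094 and 124122 CPM in the 6 APAP libraries, and the 2 groups overlapped. In bulk tissue, fewer cells of a type and less RNA per cell cannot be told apart.

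Levels are CPM values, counts scaled to library depth with TMM, fold changes are log2 of APAP_MSC over APAP_PBS with their standard error (SE), and a gene passed at a Benjamini-Hochberg adjusted p under 0.05 over all tested genes. The difference between the groups was small for most genes. By edgeR's quasi-likelihood test 0 genes were higher and 1 gene, Cxcl1, was lower in APAP_MSC, which is 0.00786% of the genes tested. The next smallest adjusted p was 0.270, and 371 genes were higher and 471 lower at an unadjusted p under 0.05. DESeq2 on the same counts called 17 genes higher and 24 lower, or 0.322%, and in 40 of these 41 the 3 APAP_MSC libraries did not overlap the 3 APAP_PBS libraries. Since every gene other than Cxcl1 missed the threshold of the edgeR test, the others are described below by their values in each library, and not as changed.

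In 866 genes, 6.81% of those tested, all 3 APAP_MSC libraries lay above all 3 APAP_PBS libraries, and in 895 genes, 7.04%, they all lay below. Random ordering alone would separate 3 from 3 libraries with a probability of 0.1, both directions together. A large part of these genes could therefore lie apart without any difference between the groups. The counts given per list below are to be read against these 2 shares. Genes with no overlap differed in kind between the directions. Those above had a median level of 29.9 CPM and a median log2 fold change of 0.25, and 21 of them differed by at least 2-fold. Those below had a median level of 6.74 CPM and a median of -0.42, and 157 differed by at least 2-fold. Among genes with a mean of at least 5 CPM in 1 of the groups, 4 of 731 above and 26 of 547 below differed by that much. Scaling by library size alone gave another split, with 457 genes above and 1182 below, and the median over all tested genes moved to -0.06, against -0.01 with TMM.

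**Figure D1:**
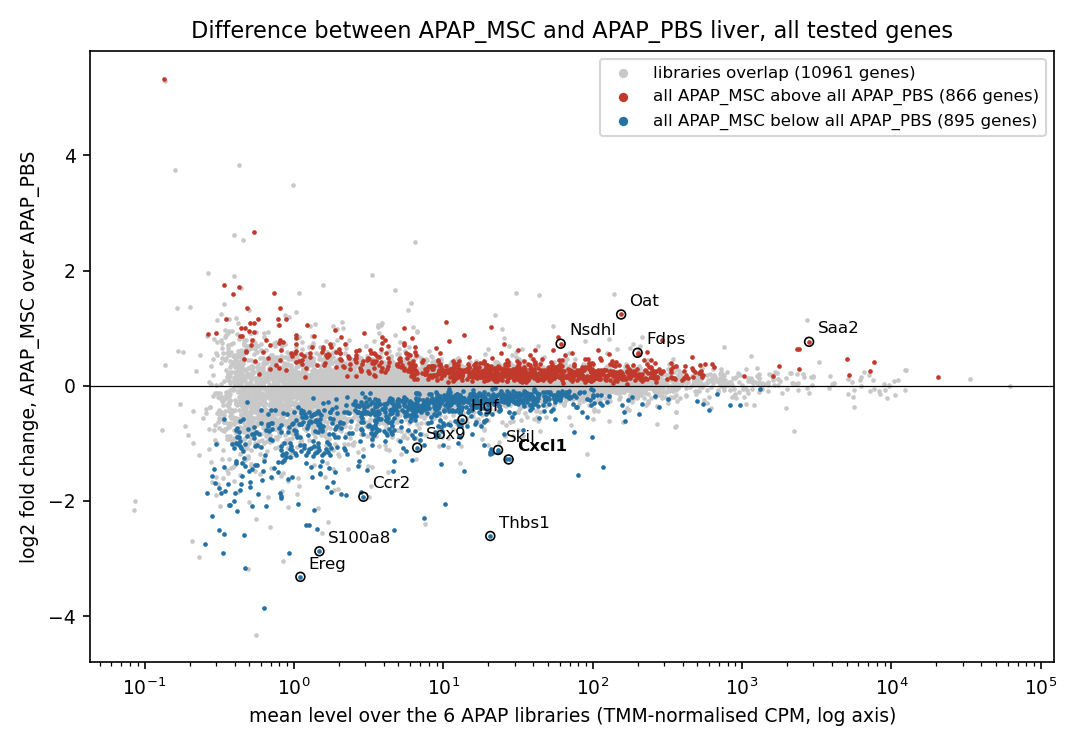
Each point is 1 of the 12722 tested genes, with its mean TMM-normalised CPM over the 6 APAP libraries on a log x axis and its log2 fold change, APAP_MSC over APAP_PBS, on the y axis. Colour marks the 866 genes whose APAP_MSC libraries all lie above and the 895 whose libraries all lie below those of APAP_PBS; the blue points at low level reach further from 0 than the red ones, and Cxcl1 (-1.28, bold) is the gene that passed the edgeR test.

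Cxcl1 (ENSMUSG00000029380; GRCm38 chr5:90891241-90893115, plus strand), a chemokine that draws neutrophils through the receptor Cxcr2, fell. Its level was 13.3, 15.03 and 19.4 CPM in the APAP_MSC libraries, 43.1, 38.4 and 34.9 CPM in the APAP_PBS libraries and 2.56 and 2.96 CPM in the CTRL libraries. Every APAP_MSC library lay below every APAP_PBS library and above both CTRL libraries. These levels rest on 228 to 498 counts in APAP_MSC and 597 to 926 in APAP_PBS. The log2 fold change was -1.28 ± 0.15 (SE; edgeR quasi-likelihood test, adjusted p = 0.0340), which leaves 0.412 of the APAP_PBS level. A two-sided exact permutation test of the 3 against 3 levels gave p = 0.1, the smallest value that groups of this size allow. The size of the fall held under every alternative run, between -1.45 and -1.17, while the call did not: of the 8 fits that left out 1 library, only the fit without APAP_MSC replicate 3 kept it, with edgeR adjusted p-values from 0.00911 to 0.292 over the 8. The other 2 tested members of its list of 7 CXC chemokines had groups that overlapped.

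The promoter of Cxcl1 is known from mouse and human cells as a target of NF-kB, the transcription factor that inflammatory cytokines switch on. A stretch of 100 bases upstream of the RefSeq start is shown because it holds this motif (RefSeq, GRCm38.p6, chr5:90891115-90891214, plus strand), with matches to an NF-kB motif, GGGA and CC with any 4 bases between them on either strand, in capitals.
Cxcl1 promoter: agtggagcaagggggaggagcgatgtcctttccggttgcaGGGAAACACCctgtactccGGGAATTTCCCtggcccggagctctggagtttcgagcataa
It holds 3 matches, which begin 90, 71 and 70 bases before the start, and the last 2 of these overlap. The motif is frequent. Of the tested genes with a RefSeq promoter, 30.2% had at least 1 match in any of their promoters. Counted by promoter and not by gene, 20.7% of the 32851 promoters in RefSeq had a match, so the 2 shares are not alike. Among genes whose APAP_MSC libraries all lay below, 32.4% had a match, and among those that all lay above, 29.3%. These shares lie close to that of all tested genes.

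Of 27 cytokines and NF-kB feedback genes, 0 passed the edgeR test, 8 lay below in all APAP_MSC libraries and 0 above, with a median log2 fold change of -0.29 against -0.01 over all genes. Nfkbiz, an inducible co-factor of NF-kB, had 8.17, 4.74 and 5.61 CPM in APAP_MSC against 10.9, 9.07 and 8.95 CPM in APAP_PBS. Selp, the P-selectin that catches leukocytes on endothelium, had 2.16, 2.19 and 2.22 CPM in APAP_MSC against 7.69, 3.48 and 2.34 CPM in APAP_PBS. The 3 APAP_MSC libraries were close together for Selp, and the APAP_PBS libraries were far apart, the lowest of them just above APAP_MSC. The median of the list was -0.19 without APAP_PBS replicate 1 and -0.44 without APAP_MSC replicate 3. The cytokine Lif and the hyaluronan-binding Tnfaip6 also lay below in all libraries. Their highest level in any APAP library was 1.13 CPM, in Tnfaip6. Both passed the low-count filter only through APAP_PBS, which favours a place below. In the 6 APAP samples alone 23 members of the list were tested and 5 lay below. A stricter filter of 5 CPM left 16 members, with 4 below and a median of -0.24. Tnf is also counted among the 8, but it had 3, 0 and 3 counts in APAP_MSC and 13, 12 and 3 counts in APAP_PBS, so its counts overlap at the limit behind a count of 0. Among 15 other chemokines 2 lay below (13.3%, against 7.04% of all tested genes) and 1 above (6.67%, against 6.81%). So few members do not set this list apart from the background. Ccl7, which attracts monocytes, and Cx3cl1 were those below, and Cxcl13 lay above. Ccl7 had 7, 3 and 23 counts in APAP_MSC, 75, 35 and 17 counts in APAP_PBS and 0 in both CTRL libraries. The count ranges overlap, and the levels in CPM do not, at 0.408, 0.134 and 0.895 CPM against 4.24, 1.45 and 0.995 CPM.

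**Figure D2:**
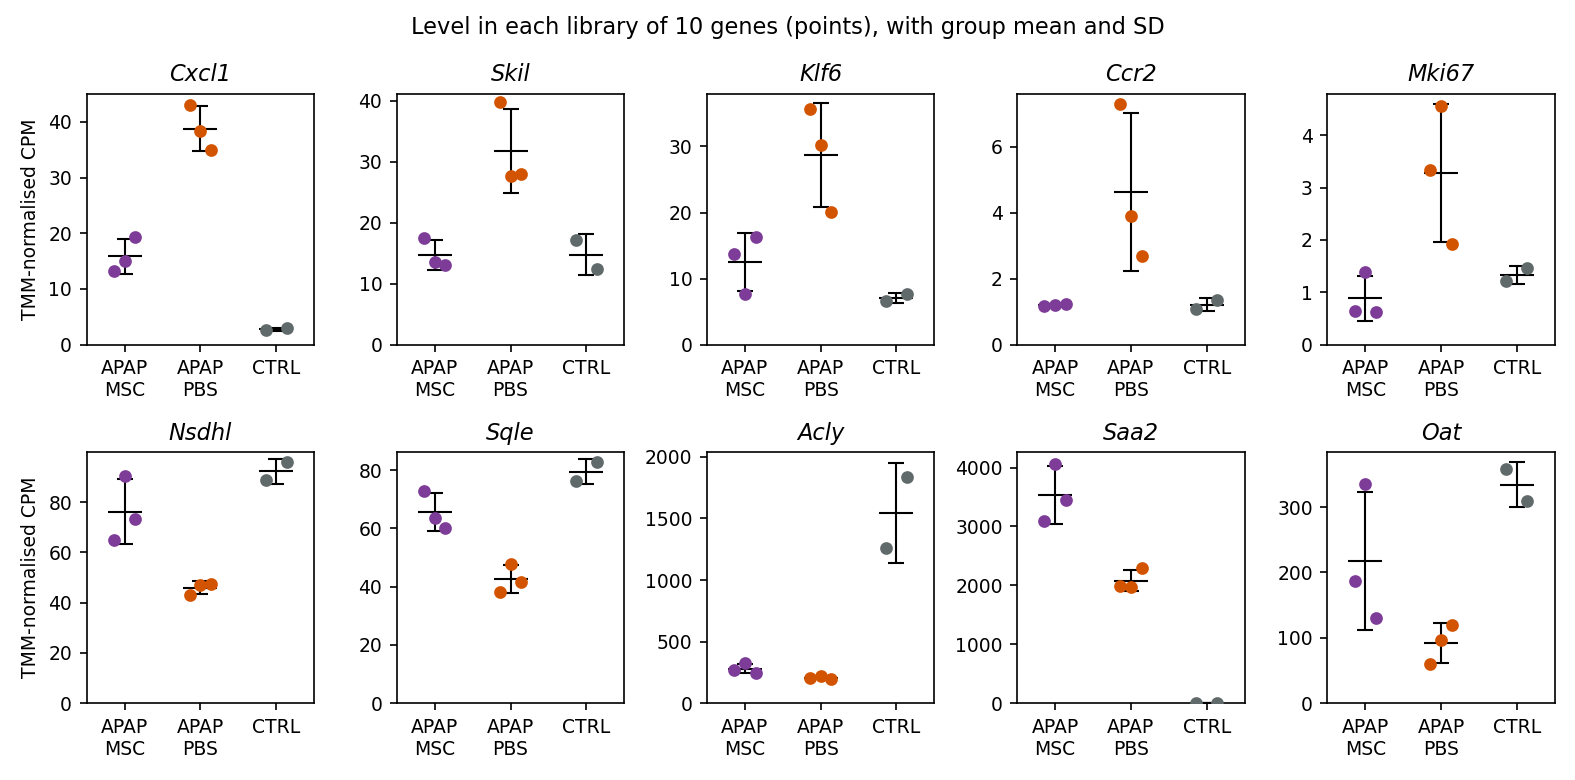
Points are the TMM-normalised CPM of each library for 10 genes, with APAP_MSC (n = 3), APAP_PBS (n = 3) and CTRL (n = 2) from left to right, and the bars give the group mean and SD on y axes that start at 0. In the upper row the APAP_MSC points lie below all APAP_PBS points, and in the lower row above them; of these genes Cxcl1 passed the edgeR test.

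Immediate early genes, which cells switch on within minutes of a stimulus without new protein synthesis, lay lower as a group. Of 26 tested members 11 lay below in every APAP_MSC library and 0 above, 24 had a negative log2 fold change, and the median was -0.85; 0 passed the edgeR test. Klf6, a zinc-finger factor, had 13.8, 7.69 and 16.2 CPM in APAP_MSC against 35.6, 30.2 and 20.1 CPM in APAP_PBS, a log2 fold change of -1.19 ± 0.29 (edgeR adjusted p = 0.554). Jun, a subunit of AP-1, had 6.65, 17.4 and 21.7 CPM in APAP_MSC against 52.5, 22.7 and 36.8 CPM in APAP_PBS. The gap between the groups was narrow for Jun, at 21.7 and 22.7 CPM, and the libraries within each group differed by more than that. Fosl2, another AP-1 subunit, and Btg2, which slows the cell cycle, had log2 fold changes of -0.88 ± 0.21 and -1.09 ± 0.30. Atf3, a stress-induced factor, had 16.4, 1.61 and 20.2 CPM in APAP_MSC against 23.5, 35.7 and 25.97 CPM in APAP_PBS, so APAP_MSC replicate 2 was alone near the CTRL level of 1.57 and 1.46 CPM. DESeq2 called 2 of the 26 lower, Klf6 and Btg2. No single library left out moved the list's median by more than 1.5 times.

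Skil, the SnoN protein that restrains TGF-beta signalling and is itself induced by it, had 17.4, 13.6 and 13.1 CPM in APAP_MSC, 39.7, 27.6 and 28.0 CPM in APAP_PBS and 17.1 and 12.4 CPM in CTRL, a log2 fold change of -1.12 ± 0.18 (edgeR adjusted p = 0.270). The APAP_MSC libraries lay within or near the range of CTRL and below all of APAP_PBS. Of 30 genes of the TGF-beta pathway and its feedback 4 lay below and 1 above, with a median of -0.11 that was -0.17 without APAP_PBS replicate 2. Inhba, a subunit of activin A, had 9.33, 10.6 and 9.46 CPM in APAP_MSC, 13.2, 11.2 and 15.2 CPM in APAP_PBS and 18.4 and 16.3 CPM in CTRL. Here APAP_MSC lay further from CTRL than APAP_PBS did.

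Targets of YAP and of serum response factor, which answer to cell tension and drive cytoskeletal genes, showed 8 of 32 members below and 0 above, a median of -0.54, and 29 negative values. Ccn1 and Ccn2 are matricellular proteins and standard YAP targets. Ccn1 had 5.95, 6.80 and 6.74 CPM in APAP_MSC against 20.3, 9.07 and 10.8 CPM in APAP_PBS. Ccn2 had 3.44, 2.86 and 5.37 CPM in APAP_MSC against 32.0, 9.65 and 7.72 CPM in APAP_PBS. For both, APAP_PBS replicate 1 was far above the rest of its group. The same library led Thbs1, a matrix glycoprotein that activates latent TGF-beta, with 5.48, 2.68 and 9.07 CPM in APAP_MSC against 71.8, 22.5 and 12.2 CPM in APAP_PBS (log2 fold change -2.61 ± 0.83, edgeR adjusted p = 0.704; -1.59 without APAP_PBS replicate 1). Tagln, a smooth muscle actin-binding protein, had 7.35, 4.12 and 10.1 CPM in APAP_MSC against 30.2, 12.6 and 18.2 CPM in APAP_PBS, and DESeq2 called it lower. The list's median was -0.33 without APAP_PBS replicate 1 and -0.36 without APAP_MSC replicate 2. Of 45 matrix and remodelling genes 5 lay below (11.1%, against 7.04% of all tested genes) and 0 above. Tnc, tenascin-C, was among those below, with 1.40, 0.582 and 2.18 CPM in APAP_MSC against 16.6, 5.05 and 2.34 CPM in APAP_PBS. The median of these 45 genes, -0.22, became -0.09 without APAP_PBS replicate 1, and also without APAP_MSC replicate 2.

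Growth factors that act on hepatocytes were next. Of 19 EGF receptor ligands, feedback genes and genes of the hepatocyte growth factor pathway, 4 lay below and 1 above, with a median of -0.34 that became -0.20 without APAP_MSC replicate 2 and -0.21 without APAP_PBS replicate 1, and -0.07 over the 11 members left by a stricter filter of 5 CPM. Hgf, the hepatocyte growth factor made by stellate and endothelial cells, had 10.97, 12.2 and 9.03 CPM in APAP_MSC, 15.4, 16.2 and 16.8 CPM in APAP_PBS and 7.90 and 7.24 CPM in CTRL. The groups were well apart for Hgf relative to their spread (-0.59 ± 0.13, edgeR adjusted p = 0.445). Ereg, the EGF receptor ligand epiregulin, had 3, 2 and 8 counts in APAP_MSC against 50, 51 and 19 counts in APAP_PBS, with 0 and 2 counts in CTRL. With so few counts its log2 fold change of -3.32 ± 0.58 (edgeR adjusted p = 0.270) is imprecise, but the counts themselves do not overlap. Spry2 and Errfi1, which damp receptor signalling, lay below as well, Errfi1 with 905, 736 and 938 CPM in APAP_MSC against 1160, 986 and 1112 CPM in APAP_PBS. Mst1, the hepatocyte growth factor-like protein, lay above.

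Cell cycle genes had few reads. Of 25 genes of G2 and mitosis 7 lay below and 1, Cks2, above, with a median of -0.89. Mki67, the proliferation antigen, had 0.642, 1.39 and 0.623 CPM in APAP_MSC, 3.33, 4.56 and 1.93 CPM in APAP_PBS and 1.21 and 1.46 CPM in CTRL, a log2 fold change of -1.89 ± 0.40 (edgeR adjusted p = 0.378). Top2a, a topoisomerase of dividing cells, had 0.758, 0.984 and 0.584 CPM in APAP_MSC against 2.88, 4.10 and 1.29 CPM in APAP_PBS. Both genes rested on few reads, with 11 to 31 counts of Mki67 in APAP_MSC and 33 to 110 in APAP_PBS. The summed level of the 25 genes was 41.5, 38.0 and 36.9 CPM in APAP_MSC against 49.97, 55.7 and 39.0 CPM in APAP_PBS. The groups overlapped for this sum. The list's median was -0.39 without APAP_PBS replicate 2 and 0.26 over the 3 members left by a stricter filter of 5 CPM. Of 35 DNA replication genes 5 lay below (14.3%, against 7.04% of all tested genes) and 1 above. Their median of -0.25 was -0.38 without APAP_PBS replicate 3, when 17 lay below. Of 39 genes of ribosome biogenesis 7 lay below and 1 above, among them the nucleolar proteins Nop58 (-0.69 ± 0.22) and Gnl3 (-0.28 ± 0.11). The median of that list, -0.16, became -0.05 without APAP_MSC replicate 2.

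Markers of bile duct and progenitor cells lay lower in all 10 tested members, and in 5 of them the groups did not overlap, with a median of -0.58. Sox9, a transcription factor of bile duct cells that injured hepatocytes can also express, had 5.31, 3.18 and 4.44 CPM in APAP_MSC, 10.97, 7.95 and 8.25 CPM in APAP_PBS and 3.85 and 3.62 CPM in CTRL (-1.08 ± 0.21, edgeR adjusted p = 0.364). Spp1, osteopontin, had 38.2, 39.8 and 35.5 CPM in APAP_MSC against 47.6, 46.0 and 51.0 CPM in APAP_PBS. Krt19, the keratin of bile ducts, had 8.69, 6.08 and 10.2 CPM in APAP_MSC against 10.46, 15.3 and 24.4 CPM in APAP_PBS, and its 2 CTRL libraries, at 23.3 and 1.03 CPM, differed more than the groups did. Among 15 stellate cell markers 3 lay below, Hgf, Des and the nerve growth factor receptor Ngfr, and 2 above, Ecm1 and Colec11. The intermediate filament Des had 4.78, 2.997 and 5.14 CPM in APAP_MSC against 7.40, 5.63 and 8.95 CPM in APAP_PBS.

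**Figure D3:**
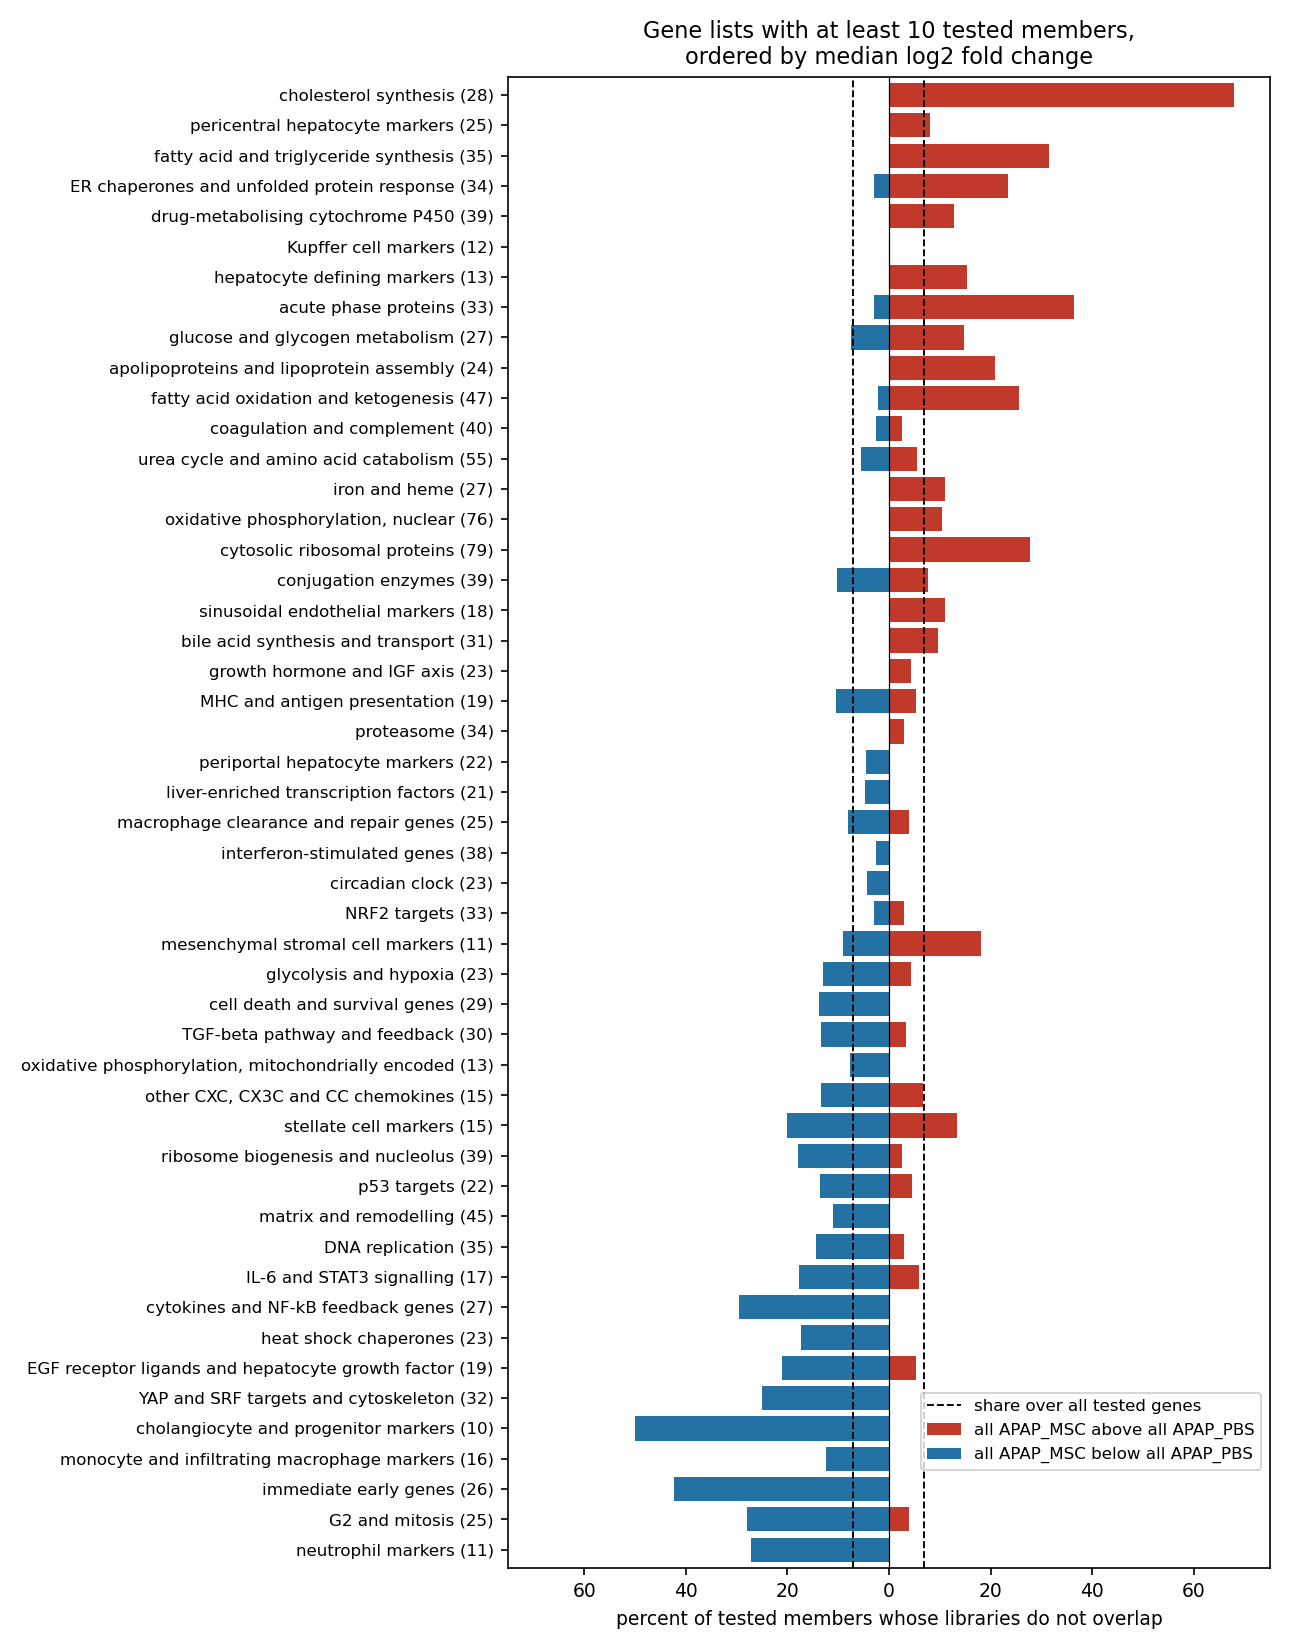
Bars give the percent of the tested members of each gene list whose APAP_MSC libraries all lie above (red, right) or all below (blue, left) the APAP_PBS libraries, with the number tested in brackets and the lists ordered by median log2 fold change. Dashed lines mark the shares over all tested genes, 6.81% above and 7.04% below; cholesterol synthesis has the longest red bar, with 19 of 28 members, and immediate early genes have 11 of 26 on the blue side.

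Cholesterol synthesis was the list with the largest share of members above. The pathway turns acetyl-CoA through mevalonate, farnesyl diphosphate and squalene into lanosterol and then cholesterol, and its genes are switched on together by the factor SREBP-2 when the sterol content of the ER membrane is low. Of its 28 tested members 19 lay above in every APAP_MSC library and 0 below, 27 had a positive log2 fold change, and the median was 0.41 against -0.01 over all genes; 0 passed the edgeR test, and DESeq2 called 8 higher. Among its 20 enzymes 17 lay above, with log2 fold changes from 0.22 to 0.78 over the 20. Scaled by library size alone, 17 of the 28 members lay above, and leaving out any 1 library kept the median between 0.37 and 0.49.

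In the order of the pathway, Mvd, which makes the first isoprene unit, had 14.6, 12.9 and 13.7 CPM in APAP_MSC, 6.27, 7.91 and 9.83 CPM in APAP_PBS and 30.5 and 23.8 CPM in CTRL (0.78 ± 0.17, edgeR adjusted p = 0.385). Fdps, the farnesyl diphosphate synthase, had 254, 242 and 220 CPM in APAP_MSC, 150, 180 and 151 CPM in APAP_PBS and 384 and 438 CPM in CTRL. For both genes the APAP_MSC libraries lay between APAP_PBS and CTRL. Sqle, the squalene epoxidase, had 72.9, 63.7 and 60.1 CPM in APAP_MSC, 38.2, 47.8 and 41.6 CPM in APAP_PBS and 76.4 and 82.6 CPM in CTRL (0.62 ± 0.12, edgeR adjusted p = 0.299). Cyp51, which removes the first methyl group of lanosterol, had 233, 241 and 246 CPM in APAP_MSC, 155, 177 and 158 CPM in APAP_PBS and 252 and 201 CPM in CTRL. Here APAP_MSC reached the CTRL range.

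Nsdhl, which removes further carbons from the sterol ring, had the smallest p of the list. Its level was 64.9, 90.2 and 73.1 CPM in APAP_MSC, 42.9, 47.1 and 47.6 CPM in APAP_PBS and 88.8 and 95.8 CPM in CTRL (0.73 ± 0.12, edgeR adjusted p = 0.270). Dhcr7, a last enzyme of the pathway, had 82.8, 78.0 and 71.4 CPM in APAP_MSC, 53.6, 54.6 and 51.2 CPM in APAP_PBS and 107 and 109 CPM in CTRL. The 3 APAP_PBS libraries were nearly equal for Dhcr7, and all 3 APAP_MSC libraries lay well above them. The enzymes with groups that overlapped were Hmgcs1, Mvk and Idi1. Among the other 8 members, which sense, take up or carry sterols, 2 lay above. Insig1, the ER anchor of the sterol sensor, was among them, at 230, 294 and 240 CPM in APAP_MSC against 162, 214 and 183 CPM in APAP_PBS. Srebf2, the gene of SREBP-2 itself, overlapped at 0.10 ± 0.12, and ranged from 0.04 to 0.22 with 1 library left out.

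**Figure D4:**
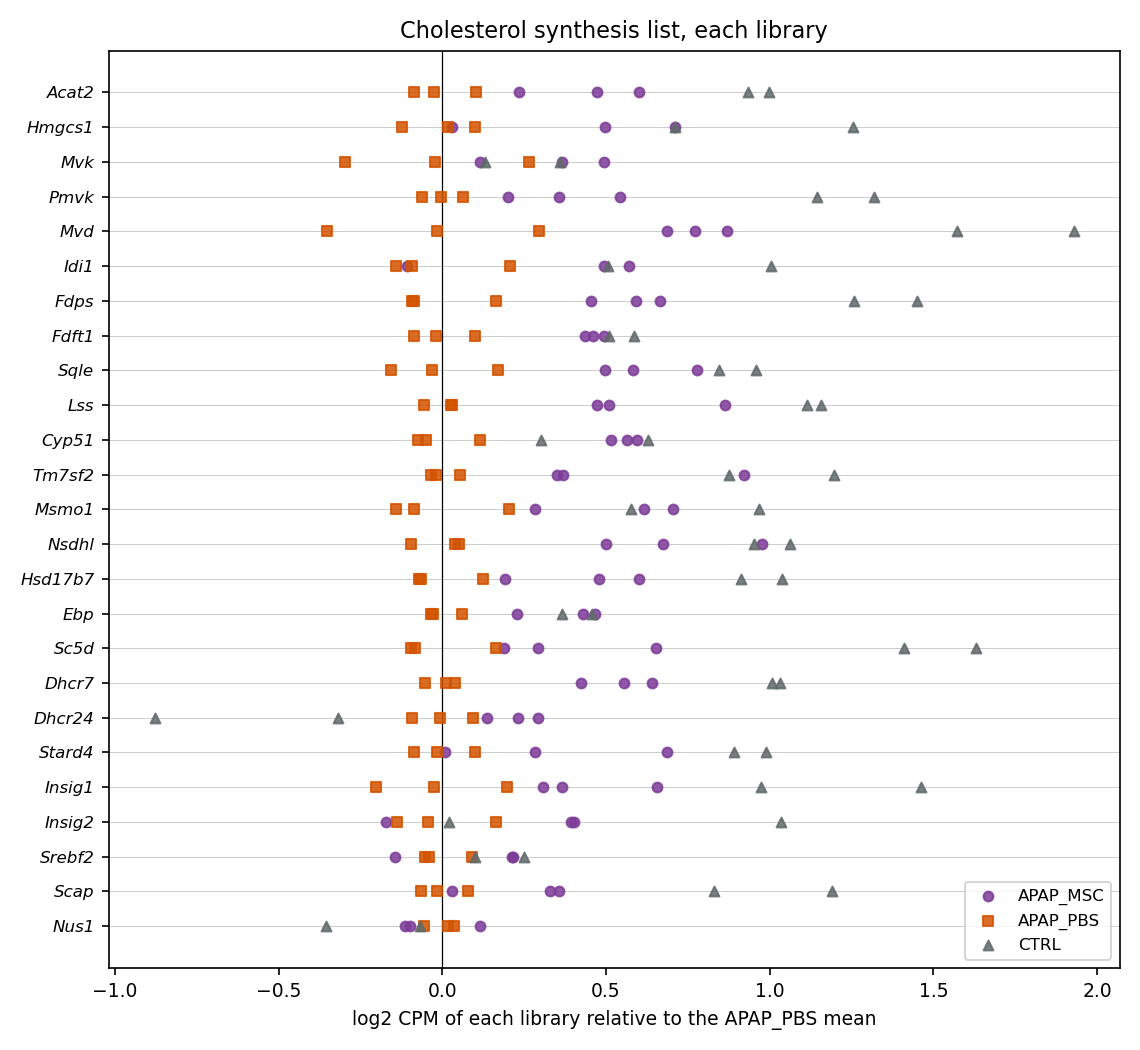
For 25 genes of the cholesterol list, enzymes first in pathway order and then sensors, uptake and other genes, points give log2 CPM of each library minus the log2 of the APAP_PBS mean on the x axis. Circles (APAP_MSC) lie right of all squares (APAP_PBS) for 17 of these genes, and triangles are CTRL.

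The genes of fatty acid and triglyceride synthesis had 11 of 35 members above and 0 below, and a median of 0.29 that became 0.19 without APAP_MSC replicate 2. Acly, which makes cytosolic acetyl-CoA, had 273, 323 and 247 CPM in APAP_MSC, 202, 218 and 200 CPM in APAP_PBS and 1259 and 1833 CPM in CTRL. The groups of APAP livers did not overlap, and both lay far below CTRL. Fads1 and Fads2, desaturases of polyunsaturated fatty acids, had log2 fold changes of 0.39 ± 0.12 and 0.32 ± 0.11, and Gpam, which starts triglyceride assembly, 0.37 ± 0.13. Fasn, the fatty acid synthase, overlapped, with 178, 356 and 235 CPM in APAP_MSC against 111, 186 and 180 CPM in APAP_PBS. Scd1, the stearoyl-CoA desaturase, had 2169, 7667 and 1424 CPM in APAP_MSC against 1800, 1528 and 1750 CPM in APAP_PBS, so that its positive log2 fold change of 1.15 ± 0.64 (edgeR adjusted p = 0.806) came from APAP_MSC replicate 2 and was 0.09 without it. In fatty acid oxidation and ketogenesis 12 of 47 members lay above and 1, the pyruvate dehydrogenase kinase Pdk4, below, with a median of 0.12. Acsl1, which activates long-chain fatty acids, had 647, 661 and 618 CPM in APAP_MSC against 425, 526 and 531 CPM in APAP_PBS. Of 24 apolipoproteins and lipoprotein assembly genes 5 lay above and 0 below, with a median of 0.13; Tm6sf2, which loads lipid onto VLDL, had 21.8, 19.6 and 22.8 CPM in APAP_MSC against 15.7, 14.6 and 17.8 CPM in APAP_PBS.

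Acute phase proteins are secreted by hepatocytes under IL-6 and IL-1. Of 33 tested members 12 lay above in every APAP_MSC library and 1, the membrane enzyme Steap4, below, with a median of 0.15. DESeq2 called 5 higher, the close copies Saa1 and Saa2, the close copies Orm1 and Orm2, and Hamp2. Unlike the Saa and Orm genes, Hamp2 lay below CTRL in both APAP groups. Saa2, a serum amyloid A, had 3088, 4062 and 3447 CPM in APAP_MSC, 1983, 1973 and 2289 CPM in APAP_PBS and 8.19 and 8.79 CPM in CTRL (0.76 ± 0.13, edgeR adjusted p = 0.270). Saa1 and Saa2 are near-identical copies between which reads could have been split; summed, they had 5652, 7468 and 6247 CPM in APAP_MSC against 3669, 3828 and 4412 CPM in APAP_PBS. The orosomucoids Orm1 and Orm2, also close copies, summed to 2970, 3613 and 3064 CPM in APAP_MSC, 2018, 2023 and 2097 CPM in APAP_PBS and 1140 and 894 CPM in CTRL. Both pairs were thus separated by group as sums too. Hpx, the heme-binding hemopexin, had 7862, 9085 and 9345 CPM in APAP_MSC against 6744, 5855 and 7080 CPM in APAP_PBS. Itih4, a serum protease inhibitor chain, had 5214, 5516 and 6693 CPM in APAP_MSC against 4126, 3778 and 4726 CPM in APAP_PBS. Crp and Fgl1 overlapped.

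Of 17 genes of IL-6 and STAT3 signalling, the pathway upstream of these proteins, 3 lay below and 1, the leptin receptor Lepr, above, with a median of -0.26. Stat3 had 164, 143 and 163 CPM in APAP_MSC against 197, 167 and 196 CPM in APAP_PBS. Cebpb, a factor that binds many acute phase promoters, had 55.4, 43.0 and 65.9 CPM in APAP_MSC, 123, 83.2 and 80.7 CPM in APAP_PBS and 45.9 and 44.9 CPM in CTRL (-0.80 ± 0.19, edgeR adjusted p = 0.530). Socs3, the feedback inhibitor that STAT3 induces, overlapped, at 14.9, 16.7 and 28.8 CPM in APAP_MSC against 38.6, 26.4 and 32.7 CPM in APAP_PBS. Stretches of 2 promoters are shown because STAT and AP-1 motifs are frequent in this gene class, with matches to TTCNNNGAA (STAT) and TGANTCA (AP-1), both palindromic, in capitals. The first is that of Itih4 (RefSeq, GRCm38.p6, chr14:30886386-30886445, plus strand), and the second that of Hamp2, a copy of the iron hormone hepcidin (chr7:30924242-30924301, minus strand).
Itih4 promoter: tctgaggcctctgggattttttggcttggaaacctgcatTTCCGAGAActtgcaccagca
Hamp2 promoter: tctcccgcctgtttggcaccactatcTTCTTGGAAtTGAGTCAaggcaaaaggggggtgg
The Itih4 match begins 51 bases before the start. In Hamp2 the STAT match begins 94 and the AP-1 match 84 bases before it. Windows ran from 250 bases before to 50 after the start, and a gene counted if any of its promoters matched. The STAT motif stood in 8 of 24 acute phase genes with a RefSeq promoter (33.3%), against 8.54% of all tested genes with one. AP-1 stood in 10 of 24 (41.7%), against 6.64%. Over genes whose APAP_MSC libraries all lay above or all below, the shares were 7.58% and 10.1% for STAT and 6.87% and 6.62% for AP-1. Hamp2 had 11.3, 22.7 and 8.53 CPM in APAP_MSC, 5.2003, 6.79 and 7.66 CPM in APAP_PBS and 47.1 and 47.2 CPM in CTRL, and its reads may be shared with its copy Hamp.

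The list of ER chaperones and unfolded protein response genes had 8 of 34 members above and 1, the stress-response gene Chac1, below, with a median of 0.21. Sec61b, a subunit of the translocation channel, had 47.8, 49.2 and 40.7 CPM in APAP_MSC against 29.7, 33.6 and 36.6 CPM in APAP_PBS (0.46 ± 0.11, edgeR adjusted p = 0.530). P4hb, the protein disulfide isomerase, had 2033, 1793 and 2097 CPM in APAP_MSC against 1492, 1529 and 1677 CPM in APAP_PBS. Scaled by library size alone, 3 members lay above and 1 below, and without APAP_PBS replicate 1 the median was 0.13. Cytosolic ribosomal proteins had 22 of 79 members above and 0 below, with a small median of 0.06, and under scaling by library size alone 0 lay above and 0 below. Without APAP_PBS replicate 2 the median was 0.105 and 43 lay above; without APAP_PBS replicate 1 the median was 0.04. Heat shock chaperones had 0 of 23 above and 4 below. The copies Hspa1a and Hspa1b, inducible HSP70, summed to 110, 11.9 and 188 CPM in APAP_MSC, 201, 454 and 209 CPM in APAP_PBS and 10.8 and 25.8 CPM in CTRL. APAP_MSC replicate 2 was at the CTRL level, and the list's median of -0.29 became -0.15 without it. Among 22 p53 targets 3 lay below (13.6%, against 7.04% of all tested genes) and 1, Perp, above. Those below were Plk3, Btg2 and Trp53inp1, which DESeq2 also called lower. Trp53inp1, a stress-induced regulator of autophagy, had 79.6, 83.3 and 44.1 CPM in APAP_MSC against 144, 96.3 and 141 CPM in APAP_PBS.

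The hepatocytes around the central vein are those that acetaminophen injures. Of 25 pericentral markers 2 lay above and 0 below, a share near the background, and the median was 0.37. That median became 0.16 without APAP_MSC replicate 2 and 0.20 without APAP_PBS replicate 1. Oat, ornithine aminotransferase, had 187, 335 and 131 CPM in APAP_MSC, 60.4, 96.0 and 120 CPM in APAP_PBS and 359 and 310 CPM in CTRL (1.24 ± 0.40, edgeR adjusted p = 0.698; 0.78 without APAP_MSC replicate 2). Glul, glutamine synthetase of the innermost cells, had 125, 426 and 79.1 CPM in APAP_MSC, 46.7, 52.7 and 108 CPM in APAP_PBS and 655 and 732 CPM in CTRL. The groups overlapped for Glul, and APAP_MSC replicate 2 was the highest APAP library for both genes. Cyp2e1, the main enzyme that activates acetaminophen, overlapped at 3132, 4724 and 3304 CPM in APAP_MSC against 1788, 3086 and 3482 CPM in APAP_PBS. Cyp1a2, another activating enzyme, also overlapped, with 414, 364 and 422 CPM in APAP_MSC against 225, 367 and 282 CPM in APAP_PBS. In the wider list of drug-metabolising P450 and regulators 5 of 39 lay above (12.8%, against 6.81% of all tested genes) and 0 below. Its median was 0.21.

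Of the 41 genes that DESeq2 called, 14 belonged to none of the lists, 4 higher and 10 lower, and by the edgeR test 0 of them passed. Ces2c, a carboxylesterase, had 37.3, 31.8 and 25.7 CPM in APAP_MSC, 19.1, 17.4 and 21.002 CPM in APAP_PBS and 72.1 and 62.7 CPM in CTRL. Atf5, a stress-induced transcription factor, had 141, 120 and 128 CPM in APAP_MSC against 85.3, 97.2 and 94.5 CPM in APAP_PBS. Pnpla7, a lysophospholipase, had 68.1, 73.0 and 63.8 CPM in APAP_MSC against 48.0, 49.7 and 53.1 CPM in APAP_PBS. In these 3 genes the groups did not overlap, and in Chrna4, the fourth higher gene, they did.

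Among the 10 lower genes, Klf3, a transcriptional repressor, had 44.5, 43.4 and 46.3 CPM in APAP_MSC, 79.0, 59.8 and 62.1 CPM in APAP_PBS and 40.2 and 48.0 CPM in CTRL (-0.58 ± 0.12, edgeR adjusted p = 0.378). Trib1, a pseudokinase that directs C/EBP proteins to degradation, had 19.0, 25.9 and 30.5 CPM in APAP_MSC against 47.2, 35.4 and 47.1 CPM in APAP_PBS. Its CTRL libraries had 41.2 and 37.9 CPM. Trmt10c, a subunit of mitochondrial RNase P, had 13.4, 16.1 and 14.3 CPM in APAP_MSC against 22.2, 23.9 and 21.8 CPM in APAP_PBS. The APAP_MSC libraries lay within the CTRL range or close to it for Klf3 and below all of APAP_PBS for each of these genes. Akap2, which anchors protein kinase A, had 10.4, 10.7 and 12.4 CPM in APAP_MSC against 27.1, 16.3 and 17.02 CPM in APAP_PBS. Ces1d, another carboxylesterase, had 493, 496 and 537 CPM in APAP_MSC, 722, 714 and 618 CPM in APAP_PBS and 740 and 837 CPM in CTRL. Clec4d, a lectin of myeloid cells, and S100a4, a calcium-binding protein of fibroblasts and myeloid cells, had at most 0.467 CPM in any APAP_MSC library and at least 0.585 CPM in every APAP_PBS library. The other 3 were the predicted genes Gm7694 and Gm49339 and a second locus named Ptp4a1, in all of which the groups did not overlap.

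Neutrophil and monocyte markers were low and varied within APAP_PBS. Of 11 tested neutrophil markers 3 lay below and 0 above, with a median of -0.93; a stricter filter of 5 CPM left 4 of them, with a median of -0.13 and 0 below. S100a8, a calprotectin subunit, had 9, 9 and 4 counts in APAP_MSC, 75, 52 and 24 counts in APAP_PBS and 5 and 1 in CTRL (-2.88 ± 0.61, edgeR adjusted p = 0.378). Its partner S100a9 overlapped, at 1.92, 1.16 and 0.895 CPM in APAP_MSC against 10.2, 3.44 and 1.40 CPM in APAP_PBS. The defining markers Ly6g, Mpo, Camp and Ngp were too low to test, with 1 to 4 counts each over the 6 APAP libraries together. Elane, also too low to test, had 6, 5 and 3 counts in APAP_MSC, 3, 3 and 4 counts in APAP_PBS and 0 in both CTRL libraries. The markers summed to 537 to 713 CPM in APAP_MSC and 541 to 722 CPM in APAP_PBS, and 515 to 707 CPM of each sum was Lrg1, which hepatocytes also make. Of 16 markers of monocytes and infiltrating macrophages 2 lay below (12.5%, against 7.04% of all tested genes). Ccr2, the receptor by which monocytes leave the marrow, had 1.17, 1.21 and 1.25 CPM in APAP_MSC, 7.29, 3.89 and 2.69 CPM in APAP_PBS and 1.07 and 1.36 CPM in CTRL (-1.93 ± 0.36, edgeR adjusted p = 0.299). The summed level of the 16 was 147, 187 and 197 CPM in APAP_MSC against 328, 189.5 and 185 CPM in APAP_PBS, so only APAP_PBS replicate 1 stood above. Without that library the median was -0.36 for neutrophil and -0.14 for monocyte markers, against -0.62 for monocyte markers with all libraries; without APAP_MSC replicate 1 it was -1.74 for neutrophil markers. Kupffer cell markers, of the resident macrophages, had 0 of 12 above and 0 below. These marker levels moved with the immediate early, cytokine and YAP lists in APAP_PBS replicate 1, and their part in those lists was not tested.

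**Figure D5:**
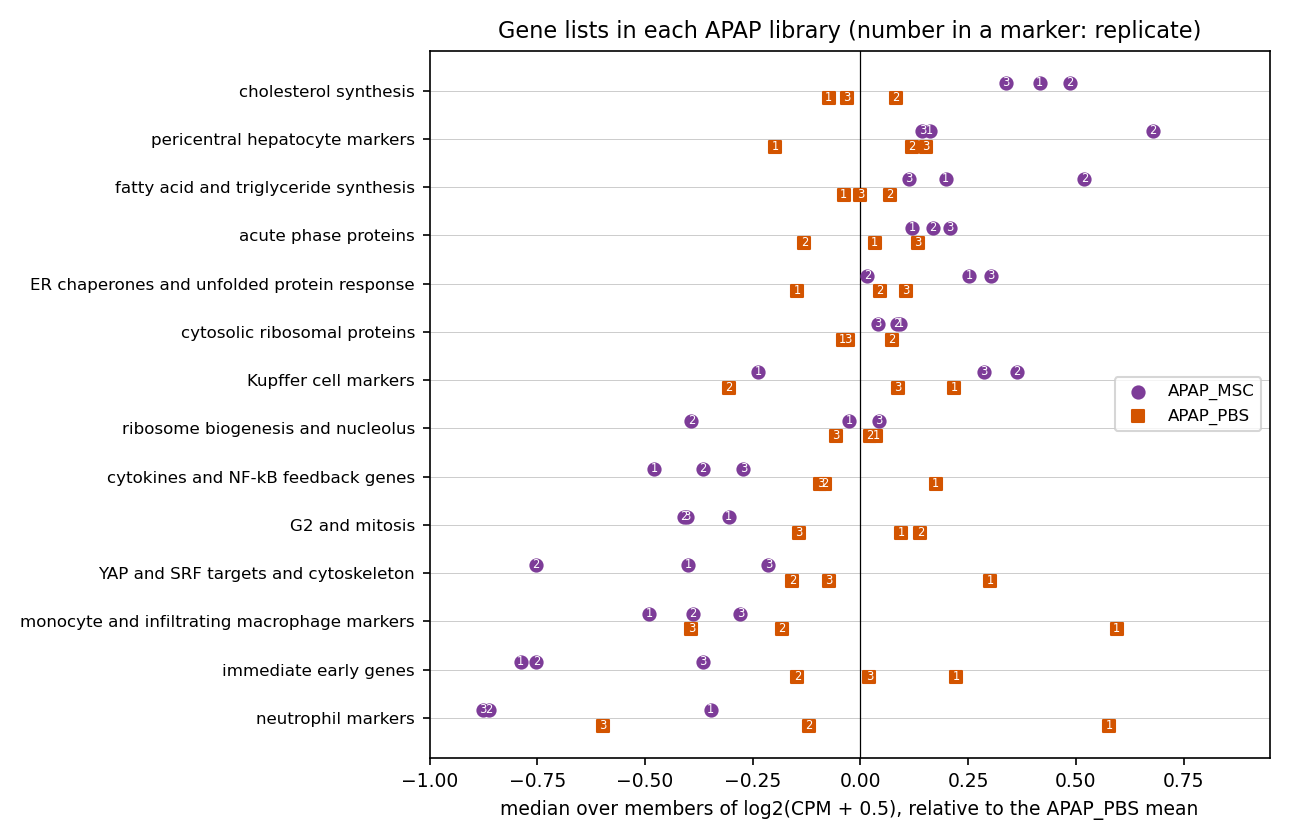
Each marker is 1 APAP library, numbered by replicate, and the x axis gives the median over a list's members of log2(CPM + 0.5), relative to the APAP_PBS mean. The APAP_MSC circles lie right of all APAP_PBS squares for cholesterol synthesis and left of all of them for immediate early genes, while for neutrophil and monocyte markers the groups overlap and APAP_PBS replicate 1 lies far to the right.

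Transcripts typical of mesenchymal stromal cells gave no common direction. Of 11 tested markers 2 lay above, Thy1 and Lepr, and 1 below, Mcam, with a median of -0.03. Thy1, also known as CD90, had 0.758, 0.760 and 0.506 CPM in APAP_MSC, 0.452, 0.456 and 0.234 CPM in APAP_PBS and 0.641 and 0.705 CPM in CTRL. Of the 3 markers too low to test, Prrx1, a factor of mesenchymal cells, had 14, 8 and 8 counts in APAP_MSC, 1, 5 and 2 counts in APAP_PBS and 1 and 10 in CTRL. The other 2 did not share this direction. Twist1 had 5, 7 and 6 counts in APAP_MSC, 6, 4 and 7 in APAP_PBS and 1 and 3 in CTRL. Cspg4 had 3, 0 and 2 counts in APAP_MSC, 4, 1 and 4 in APAP_PBS and 3 and 11 in CTRL.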

How the data were processed

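Libraries were made from oligo(dT)-selected mRNA with a NEBNext Ultra kit, per the labels' protocols, and reads passed fastp 0.18.0, per the submitters' processing notes; no aligner, quantifier, build or strand setting is given in the labels, so antisense reads cannot be told apart. For 22183 genes in 8 samples the authors deposited estimated counts and FPKM, per the file headers. Estimated counts were rounded. GENCODE M21 (GRCm38) named 22128 genes. Genes were filtered (filterByExpr), scaled with TMM and fitted with edgeR 4.0.16 (R 4.3.3; glmQLFit, robust, all 8 samples, 1 coefficient per group; SE is the log2 fold change over the root of F). Alternatives used DESeq2 1.42.0, limma 3.58.1 on log2(FPKM + 1), which understates changes of low genes, and other scalings, filters and sample sets. The edgeR step was tested on simulated data. Depth was 16261191 to 24516470 counts, and 3 counts, the upper limit behind a count of 0, equal 0.122 to 0.184 CPM, for counting error only. Motifs and seed matches were counted on RefSeq promoters and GENCODE 3′ UTRs. Gene lists, members and tests were chosen with earlier results of these data known. Named genes are the 15 of lowest p in each direction among genes with no overlap and at least 5 CPM, up to 4 per list, Cxcl1 and cell type markers; Atf3, Crp, Fgl1, Glul, Cyp2e1, Scd1, Fasn, Prrx1, Thy1, other list members and genes called by DESeq2 alone were added after their values were seen. Some members of the lists are counted but not reported by name here.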

Additional observations from a re-analysis of the deposited data

How the results depend on the processing

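The log2 fold change of Cxcl1 was negative in all 16 alternatives. It missed the threshold at -1.30 with limma on log2(FPKM + 1) (adjusted p = 0.0616), at -1.29 in the 6 APAP samples alone (edgeR adjusted p = 0.0821) and at -1.29 with a replicate block (edgeR adjusted p = 0.115), and it ranged from -1.45 to -1.17 with 1 library left out. Over these alternatives its adjusted p ran from 4.52e-09 by DESeq2 to 0.292. Same-numbered libraries did not deviate together (correlations of -0.00, -0.02 and -0.06), and those with different numbers ran from -0.10 to 0.12. So few values cannot show whether the numbers mark a shared batch. The gene called lower under the block was Skil and not Cxcl1. The count of genes higher was 17 by DESeq2 and 0 to 1 with 1 library left out. The count of genes lower was 24 by DESeq2, 0 by limma, 0 in the 6 APAP samples alone and 0 to 1 with 1 library left out. Genes with all APAP_MSC libraries above numbered 457 with library size only, 469 with FPKM and 901 to 1736 with 1 library left out, and those below 1182, 1101 and 871 to 1694. The lowest ends, 901 and 871, came without a CTRL library; without an APAP library 1209 to 1736 lay above and 1301 to 1694 below, and there a group of 2 is compared with a group of 3. On log2(FPKM + 1) the list medians were -0.27 for neutrophil, -0.36 for monocyte, -0.16 for G2 and mitosis, -0.12 for EGF receptor ligand, -0.06 for TGF-beta and -0.14 for matrix genes, and 0.18 for pericentral, 0.11 for P450 and 0.10 for acute phase genes; this scale understates low genes. Among the 102 genes with a fold change followed, none changed direction in any of the 16 alternatives that gave it a value. Many of them were named because their groups do not overlap, and leaving out 1 library can hardly reverse such a gene. The constant direction is therefore little evidence of stability. Over the 53 lists, 62 medians in 25 lists moved by more than the spread between replicates. The cause of the lost Cxcl1 calls was not tested. Genes under about 1 CPM rest on few counts, and some, such as Lif and Ereg, passed the filter only through APAP_PBS. Having 3 libraries a group limits what any test here can call.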
